A study of Mus musculus with 4 samples.

Results

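Sterol and fatty acid synthesis genes were followed through mouse colon tumour cells of 3 ENU mutant lines, M8, M32 and M83, and of their control. The 36 genes were taken by symbol from the deposited table of 41457 genes, and all 36 symbols were found. They comprise 8 genes of the mevalonate pathway, 11 of the branch that leads to cholesterol, 5 regulators, 4 genes of sterol transport and export and 8 genes of fatty acid synthesis and desaturation. ENU (N-ethyl-N-nitrosourea) is an alkylating mutagen, and the labels give the lines 1 shared genotype label, ENU mutant, with colon as tissue, tumour as source and RPMI as medium for them and for the control. Each line and the control has 1 column of raw gene counts from poly(A) RNA, called a library here, so a value of a single line has no replicate check. The name of the parent cells, and whether each line is 1 clone, are not stated in the labels.

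Cells make cholesterol from acetyl-CoA through mevalonate, isoprenoid units and squalene, and make fatty acids from the same precursor. Both pathways are controlled by the SREBP transcription factors, which are held in the endoplasmic reticulum by SCAP and the INSIG proteins when sterols are plentiful and are released to the nucleus when sterols fall. SREBP2 acts mainly on sterol genes and SREBP1 mainly on fatty acid genes. LXR nuclear receptors, which sense oxysterols, induce genes of sterol export.

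The libraries held between 25818148 counts (control) and 28879954 counts (M8). Counts were scaled with TMM factors to counts at a common library depth (CPM), and 35 of the 36 genes passed edgeR's filter on low counts, which kept 13576 genes in all. Abcg1, a sterol exporter gene, did not pass, with 2, 3 and 10 counts in M8, M32 and M83 and 0 in control. Epithelial identity genes other than Krt18 were near the floor, with Epcam and Cdx2 at 0 counts in the 4 libraries, so the labelled colon origin is not visible in these markers. Summed leukocyte, endothelial, adipocyte and hepatocyte markers lay between 0.38 and 2.18 CPM. Summed epithelial markers reached 64.0, 36.6 and 31.8 CPM in M8, M32 and M83, against 28.5 CPM in control, mostly from the keratin gene Krt18 (1794, 992 and 911 counts in the lines, against 710 in control). Summed fibroblast markers reached 2787, 3234 and 2678 CPM in M8, M32 and M83, against 2156 CPM in control, nearly all of it from the collagen genes Col1a1 and Col1a2. Col1a1 had 25288, 33405 and 32552 counts in M8, M32 and M83, against 10970 in control, and was higher in the 3 lines by the 2-fold rule given below. Pdgfrb was higher in M8 and M32 by that rule (ratios 2.64 and 5.19), and Pdgfra in M8 and M83 (2.08 and 2.18). Of the other fibroblast markers Thy1 had 0 counts in the 4 libraries, Lum had 0, 8 and 2 counts in M8, M32 and M83 and 0 in control, and Dcn had 13, 48 and 29 counts in the lines and 2 in control. Summed proliferation markers (18 genes) reached 3916, 4446 and 4148 CPM in M8, M32 and M83, with 5292 CPM in control. By the same rule 2 of the 18 were lower in M8, Mki67 and Rrm2 (ratios 0.389 and 0.406), and 0 in M32 and M83. The part of these shifts in the results below was not tested.

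The sterol genes separated the lines from each other. Most of them lay above control in M8, further above it in M32 and below it in M83. A gene was counted as higher or lower in 1 library over another when 3 conditions held. The log2 ratio of TMM-scaled counts (prior count 2) reached 1 in size, 50 or more counts stood in the higher library, and the exact 95% interval of the ratio left out 1. This interval is binomial (Clopper-Pearson) and covers counting error only. By this rule 8 of the 35 genes were higher in M8 than in control, where 2.97% of all tested genes were, and 0 were lower, where 1.64% were. In M32, 18 of 35 were higher, where 3.88% of all tested genes were, and 0 were lower, where 0.921% were. In M83, 0 were higher and 2 were lower, where 4.17% and 1.02% of all tested genes were. Counted among genes with at least 50 counts in the higher library, as these 35 have, the shares of higher genes were 3.73%, 4.86% and 5.19% in M8, M32 and M83. The 3 comparisons share the control library and so are not independent of each other. The 35 genes had medians of 0.42, 1.04 and -0.25 (log2 ratio) in M8, M32 and M83, beside medians of 0.02, -0.0004 and 0.0069 over all tested genes. In 21 of the 35 genes M8 and M32 lay above control and M83 below it, a pattern held by 9.47% of all tested genes. Another 8 lay above control in the 3 lines and 1 below it, where 23.3% and 21.3% of all tested genes did.

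**Figure D1:**
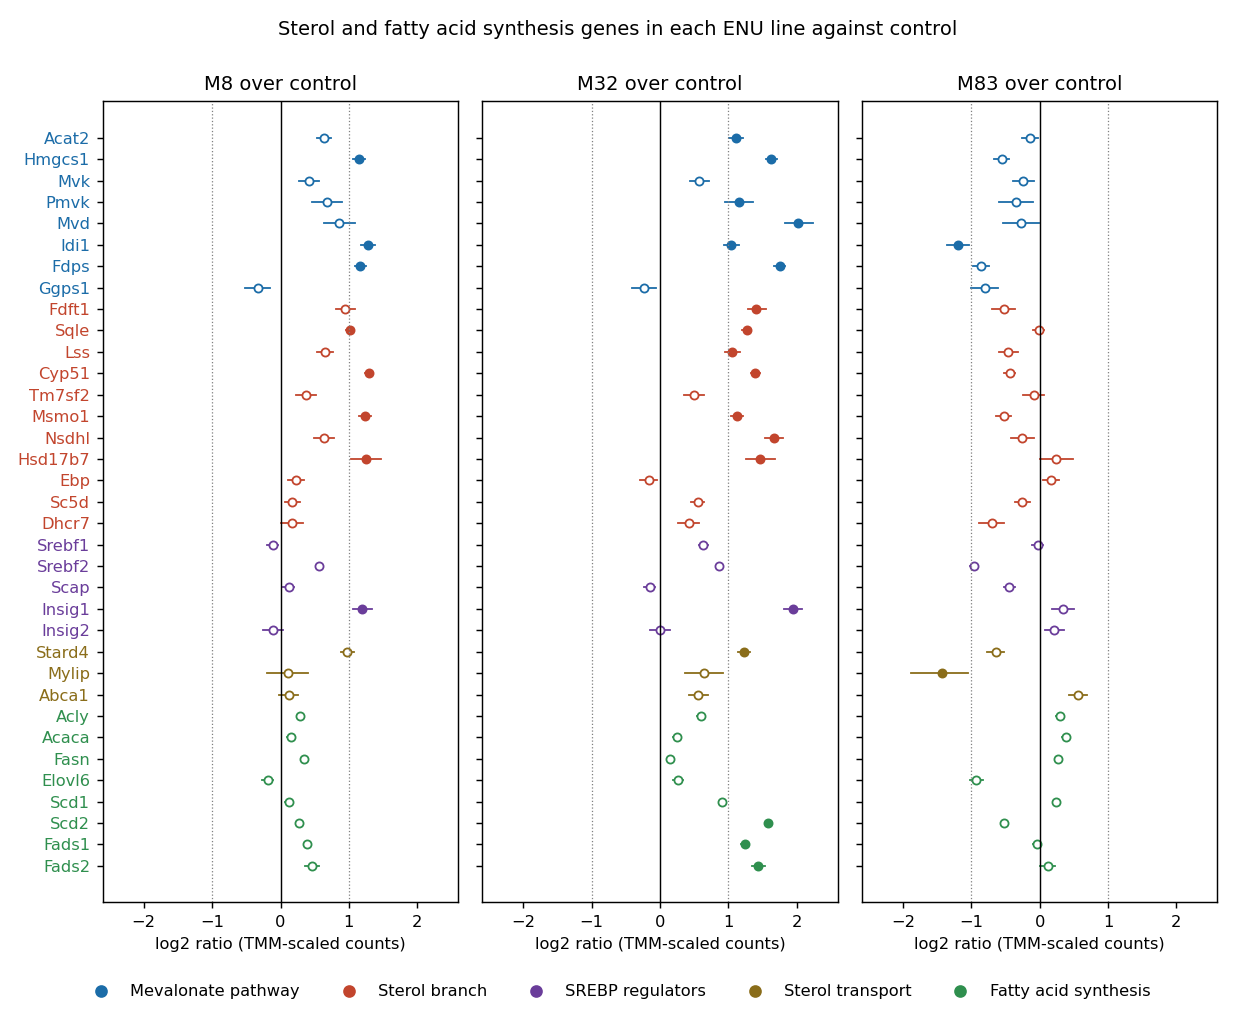
Log2 ratio of each ENU line over control (x axis) for the 35 tested sterol and fatty acid genes (y axis), coloured by role; points are TMM-scaled ratios, bars are exact 95% counting intervals, filled points meet the 2-fold rule and dotted lines mark log2 ratios of -1 and 1. In M32 18 points are filled on the right, in M8 8, and in M83 2 on the left (Idi1 and Mylip).

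In the mevalonate pathway 6 of 8 genes were higher in M32 by the rule, 3 in M8 and 0 in M83, where Idi1 was lower. Hmgcs1, which encodes the synthase that makes HMG-CoA, had 3666 counts in M8, 4874 in M32 and 1146 in M83, against 1485 in control. It was 2.21-fold (95% interval 2.08 to 2.35) of control in M8, 3.09-fold (2.91 to 3.27) in M32 and 0.681-fold (0.63 to 0.736) in M83. The intervals of M8 and M32 did not overlap, and that of M83 lay on the other side of control.

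Fdps, the farnesyl diphosphate synthase gene on chromosome 3 (89093588 to 89101959, minus strand, GRCm38, protein-coding), had 4249 counts in M8, 6053 in M32 and 1059 in M83, against 1693 in control. Its ratio to control reached 2.25 in M8, 3.36 in M32 and 0.552 in M83 (0.511 to 0.596). Idi1, whose product interconverts the isoprenoid units, had 2745 counts in M8, 2219 in M32 and 503 in M83, against 1013 in control. Here M8 was the highest library, at 2.43-fold of control (2.26 to 2.61), and M83 was at 0.438-fold (0.393 to 0.488), the lowest ratio to control among the sterol synthesis enzymes. Mvd, the mevalonate diphosphate decarboxylase gene, had 491 counts in M8, 1047 in M32 and 227 in M83, against 242 in control. M32 thus stood apart for Mvd, at 4.07-fold of control (3.54 to 4.70), the largest ratio among the 35 genes in that line.

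Pmvk, a kinase gene of the pathway, had 511, 676 and 256 counts in M8, M32 and M83, against 286 in control. Acat2, which encodes the cytosolic thiolase that starts the pathway, had 2015, 2667 and 1190 counts in the same lines, against 1159 in control. Both met the 2-fold rule in M32 and not in M8. Mvk, the mevalonate kinase gene, had 1010, 1070 and 651 counts in M8, M32 and M83, against 677 in control, and its largest ratio was 1.49 (1.35 to 1.64) in M32. Ggps1, the geranylgeranyl diphosphate synthase gene that stands on a side branch, had 475, 486 and 348 counts in M8, M32 and M83, against 537 in control. It was the 1 gene of the 35 that lay below control in the 3 lines.

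**Figure D2:**
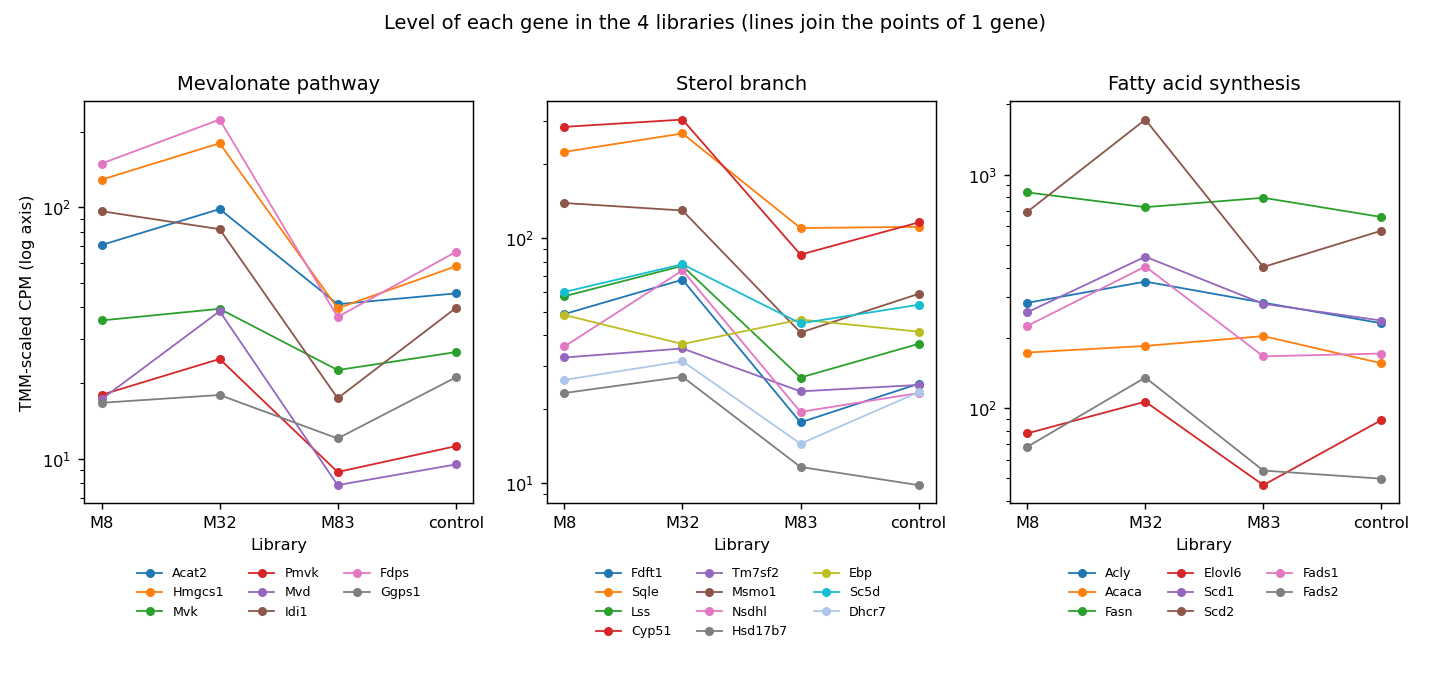
TMM-scaled CPM (log axis) of each mevalonate, sterol branch and fatty acid gene in the libraries M8, M32, M83 and control (x axis); each point is 1 library, with no replicates. M83 is the lowest library for all 8 mevalonate genes, while Fasn and Acaca in the right panel are nearly level.

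In the sterol branch 7 of 11 genes were higher in M32, 4 in M8 and 0 in M83. Sqle, the squalene epoxidase gene, had 6398 counts in M8, 7246 in M32 and 3176 in M83, against 2834 in control. M83 was level with control for Sqle (ratio 0.989, 0.94 to 1.04), while M8 and M32 were at 2.02-fold and 2.41-fold. Cyp51, the lanosterol demethylase gene, had 8094 counts in M8, 8256 in M32 and 2474 in M83, against 2953 in control. Its ratios of 2.46 in M8 and 2.63 in M32 were close to each other, and M83 was at 0.739 (0.701 to 0.78). Msmo1, a sterol methyl oxidase gene that acts next to Nsdhl, had 3956 counts in M8, 3513 in M32 and 1189 in M83, against 1509 in control. Nsdhl, which encodes the dehydrogenase of the same demethylation step, had 1027 counts in M8, 2000 in M32 and 564 in M83, against 594 in control. The ratio of M32 over M8 thus differed between these neighbouring enzymes. M32 over M8 was 2.04 (1.90 to 2.21) for Nsdhl and 0.932 (0.891 to 0.976) for Msmo1.

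Fdft1, the squalene synthase gene, had 1393, 1833 and 511 counts in M8, M32 and M83, against 648 in control. Lss, the lanosterol synthase gene, had 1647, 2088 and 779 counts in the lines, against 943 in control. Hsd17b7, a sterol ketoreductase gene, had 663, 736 and 336 counts, against 250 in control, and was the 1 gene of this branch above control in the 3 lines. The remaining genes of the branch stayed short of the 2-fold rule against control. Ebp, the sterol isomerase gene, had 1381, 1001 and 1344 counts in M8, M32 and M83, against 1058 in control, so M32 was its lowest library. Sc5d, a sterol desaturase gene, had 1715, 2119 and 1296 counts in the lines, against 1362 in control. Tm7sf2, a sterol reductase gene, had 926, 960 and 684 counts, against 641 in control. Dhcr7, which encodes a terminal reductase of the pathway, had 750, 852 and 418 counts, against 599 in control, and was at 0.616-fold of control in M83 (0.542 to 0.699).

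Among the regulators, Insig1 met the 2-fold rule in M8 and M32 and the other 4 genes did not meet it. Insig1, the sterol-responsive INSIG gene (chromosome 5, 28071363 to 28078662, plus strand, protein-coding), had 1429 counts in M8, 2278 in M32 and 800 in M83, against 558 in control. Its ratio to control reached 2.30 in M8, 3.84 in M32 (3.50 to 4.22) and 1.27 in M83 (1.13 to 1.41), so M83 was above control for this gene, unlike for most sterol enzymes. Insig2, its paralogue, had 780, 802 and 993 counts in M8, M32 and M83, against 757 in control, with ratios between 0.923 and 1.16. Srebf2, the SREBP2 gene, had 8457 counts in M8, 9905 in M32 and 2982 in M83, against 5115 in control. Its ratio reached 1.48 (1.43 to 1.53) in M8, 1.82 (1.76 to 1.88) in M32 and 0.514 (0.492 to 0.538) in M83, just short of the 2-fold rule on both sides. Srebf1, the SREBP1 gene, had 2553 counts in M8, 4090 in M32 and 2755 in M83, against 2478 in control, so that only M32 lay beyond 1.5-fold, at 1.55 (1.48 to 1.63). Scap, the escort gene, had 3173, 2509 and 2186 counts in M8, M32 and M83, against 2622 in control. The counts do not report the processing of SREBP proteins.

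Since many sterol genes differed between lines in the same direction, promoters of the list are shown with the letters of an SREBP site. RefSeq starts on GRCm38.p6 were matched for 28 of the 36 genes (Fdps, Fdft1, Sqle, Stard4, Abcg1, Scd1, Scd2 and Fads1 have no entry), giving 36 starts, and the 250 bases before each were searched on both strands. The letters TCACNCCAC, a sterol regulatory element (SRE), occurred before 1 of these 36 starts, that of Hmgcs1, and before 1.05% of 32851 starts in the table. With at most 1 mismatch in the fixed letters they occurred before 12 of the 36 starts and 20.7% of all starts. The letters CCAAT, bound by NF-Y, a partner of SREBP, occurred before 22 of the 36 starts and 33.8% of all starts. The E-box CACGTG occurred before 6 of the 36 starts and 6.02% of all starts. A match is a description of the letters and not of binding. The 6 promoters below have an SRE match outside the annotated gene and the largest counts among such genes, with Hmgcs1 first for its full match. Msmo1 and Insig1 are not shown, since their match lies among the bases left out. Capitals mark SRE letters with at most 1 mismatch and CCAAT or its reverse ATTGG. Bases inside the annotated gene are left out, and sequences run 5′ to 3′ on the strand of the gene.
Hmgcs1 (chr13:119690101-119690350, plus strand): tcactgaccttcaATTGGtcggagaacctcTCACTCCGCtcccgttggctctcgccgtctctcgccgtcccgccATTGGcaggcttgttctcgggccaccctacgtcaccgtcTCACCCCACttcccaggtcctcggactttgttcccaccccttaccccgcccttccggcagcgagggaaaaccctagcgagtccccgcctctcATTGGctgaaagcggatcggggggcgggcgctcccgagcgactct
Acly (chr11:100528001-100528250, minus strand): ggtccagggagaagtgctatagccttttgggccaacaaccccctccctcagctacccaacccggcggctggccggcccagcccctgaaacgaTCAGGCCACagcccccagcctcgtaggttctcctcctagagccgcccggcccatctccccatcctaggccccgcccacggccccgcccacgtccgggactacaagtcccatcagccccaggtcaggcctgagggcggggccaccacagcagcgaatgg
Srebf2 (chr15:82147019-82147180, plus strand): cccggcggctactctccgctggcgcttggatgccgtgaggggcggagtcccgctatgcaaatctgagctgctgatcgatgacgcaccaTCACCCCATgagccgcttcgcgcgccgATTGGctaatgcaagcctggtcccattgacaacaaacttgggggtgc
Cyp51 (chr5:4104747-4104947, minus strand): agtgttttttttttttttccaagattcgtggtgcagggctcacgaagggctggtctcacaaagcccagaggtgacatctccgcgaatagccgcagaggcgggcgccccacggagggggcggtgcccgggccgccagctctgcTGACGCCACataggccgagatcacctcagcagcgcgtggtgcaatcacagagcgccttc
Acat2 (chr17:12960748-12960975, minus strand): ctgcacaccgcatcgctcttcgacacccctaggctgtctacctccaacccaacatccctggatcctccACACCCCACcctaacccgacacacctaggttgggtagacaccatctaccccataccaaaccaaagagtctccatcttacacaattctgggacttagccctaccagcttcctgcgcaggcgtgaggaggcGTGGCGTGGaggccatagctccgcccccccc
Nsdhl (chrX:72918271-72918520, plus strand): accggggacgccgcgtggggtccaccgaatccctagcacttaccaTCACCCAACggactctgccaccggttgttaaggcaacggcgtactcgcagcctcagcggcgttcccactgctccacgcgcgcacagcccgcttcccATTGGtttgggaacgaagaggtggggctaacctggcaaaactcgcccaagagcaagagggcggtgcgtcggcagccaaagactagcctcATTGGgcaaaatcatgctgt
Hmgcs1, with a full SRE at positions -137 to -129 from its start and 3 CCAAT boxes, was at 3.09-fold of control in M32. Cyp51, Acat2 and Nsdhl, each with a match that has 1 mismatch, were at 2.63-fold, 2.16-fold and 3.17-fold. Acly holds such a match too and was at 1.51-fold, and Srebf2 at 1.82-fold. Of the other matched genes, Insig1, Hsd17b7 and Msmo1 were at 3.84-fold, 2.77-fold and 2.19-fold in M32. Mylip, Dhcr7 and Insig2, matched too, were at 1.56-fold, 1.34-fold and 0.997-fold. Mvd, Fads2, Pmvk, Lss and Idi1 met the 2-fold rule in M32 (4.07, 2.71, 2.22, 2.08 and 2.06) with no such match. A link between these letters and the ratios was not tested. The CCAAT boxes of Mvk (5 matches) stood before a gene at 1.49-fold.

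**Figure D3:**
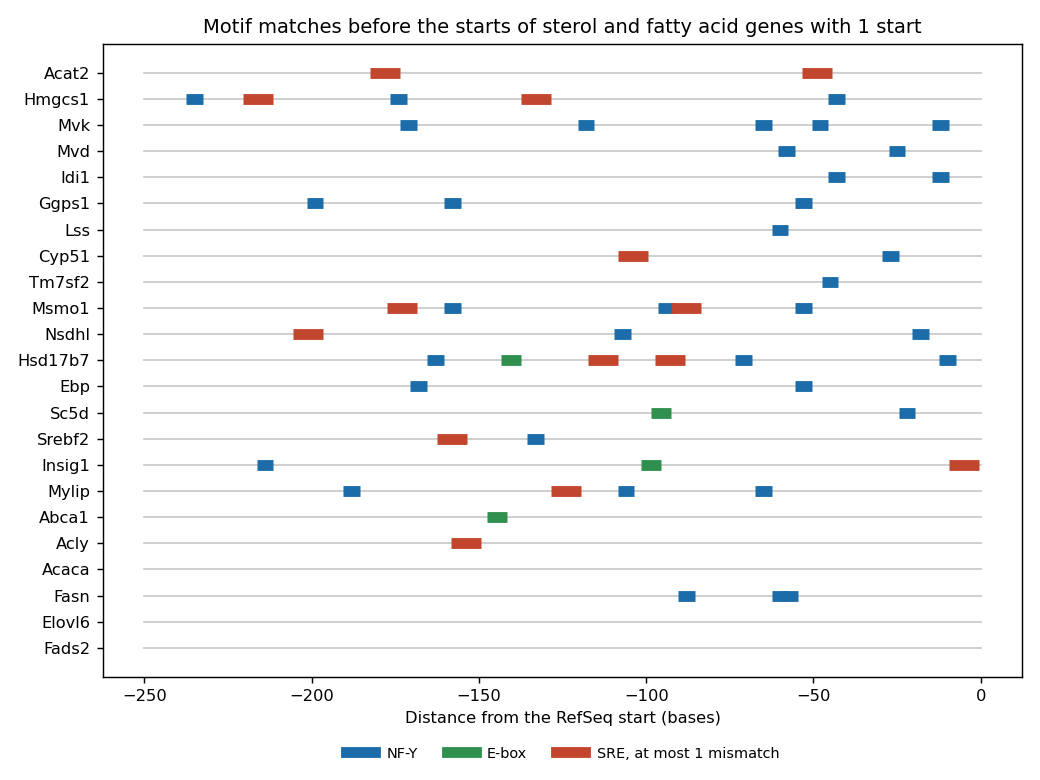
Positions of motif letters in the 250 bases before the RefSeq start (x axis, bases) of the sterol and fatty acid genes with 1 start (y axis); red marks SRE letters with at most 1 mismatch, blue CCAAT letters and green the E-box. Hmgcs1 carries 2 red and 3 blue marks, while Acaca, Elovl6 and Fads2 carry none. Some starts lie inside the annotated gene. For Acaca the searched bases begin at 84195188 and the gene at 84129672, so the bases before its annotated gene were not searched.

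Among the transport genes, Stard4, which encodes a cytosolic sterol carrier, followed the synthesis genes. It had 2847 counts in M8, 3227 in M32 and 943 in M83, against 1298 in control, or 1.97-fold, 2.34-fold and 0.641-fold of control. Mylip, the gene of the ubiquitin ligase IDOL that LXR induces and that degrades lipoprotein receptors, had 204, 282 and 70 counts in M8, M32 and M83, against 170 in control. It was the lowest ratio of the 35 genes in M83, at 0.363 (0.271 to 0.483). Abca1, a sterol exporter gene that LXR also induces, went the other way in M83, with 899, 1164 and 1236 counts in M8, M32 and M83 against 742 in control, a ratio of 1.47 (1.34 to 1.61) in M83. These LXR-responsive genes therefore lay on opposite sides of control in M83.

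Of the 8 fatty acid genes 3 were higher in M32 by the rule, Scd2, Fads1 and Fads2, and 0 in M8 and M83. Fasn, the fatty acid synthase gene, had 23906 counts in M8, 19687 in M32 and 23024 in M83, against 16805 in control, with ratios between 1.10 and 1.27. Acaca, the acetyl-CoA carboxylase gene, had 4923, 5005 and 5879 counts in the lines, against 3969 in control. Acly, the ATP citrate lyase gene that supplies acetyl-CoA to both pathways, had 8040, 9444 and 8179 counts, against 5891 in control. These genes of chain synthesis lay above control in the 3 lines, with ratios between 1.10 and 1.51.

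Scd2, a stearoyl-CoA desaturase gene on chromosome 19 (44293674 to 44306864, plus strand, protein-coding), had 19735 counts in M8, 46722 in M32 and 11631 in M83, against 14680 in control. M32 was at 2.99-fold of control (2.94 to 3.05), M8 at 1.20 and M83 at 0.699 (0.682 to 0.716). Scd1, its neighbour, had 7322, 12077 and 8087 counts in M8, M32 and M83, against 6048 in control, or 1.88-fold of control in M32. Fads1, a front-end desaturase gene of polyunsaturated fatty acid synthesis, had 6404, 10957 and 4816 counts, against 4368 in control, and Fads2, which acts in the same route, had 1942, 3664 and 1560 counts, against 1270 in control. Both were beyond 2-fold in M32 (2.36 and 2.71), while their ratios in M8 and M83 lay between 0.973 and 1.37. These 4 desaturase genes lie on chromosome 19, where the median over 458 tested genes was 0.14 (log2 ratio) in M32. Elovl6, a fatty acid elongase gene, had 2217, 2888 and 1351 counts in M8, M32 and M83, against 2265 in control, and M83 was its lowest library at 0.526-fold (0.492 to 0.563).

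Levels between genes were compared per length, as CPM per kilobase of exon. The length joins the exons of all annotated transcripts of a gene, not of the transcript expressed, so the order of genes is approximate. In control Scd2 was the highest at 105 CPM per kilobase, followed by Fasn at 60.2, Scd1 at 48.5, Acly at 43.7 and Fads1 at 35.6. Of the sterol genes Srebf2 (27.9) and Cyp51 (26.2) were highest in control, and Hsd17b7 (1.92) was lowest among the enzymes. In M32 Scd2 reached 315 CPM per kilobase, and Cyp51 reached 69.0, just above Fasn at 66.3. Summed over the 8 mevalonate genes the level was 533, 704 and 186 CPM in M8, M32 and M83, against 278 CPM in control. Summed over the 11 genes of the sterol branch it was 982, 1129 and 442 CPM in the lines, against 525 CPM in control.

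Set against control together, the 3 ENU lines gave no gene of the list that passed. edgeR's quasi-likelihood F-test called 0 of the 35 genes at an adjusted p under 0.05, where 0.00737% of all tested genes were called, and 0 had an unadjusted p under 0.05, where 3.3% of all tested genes did. DESeq2 on the same counts called 0 of them, where 0.316% of its genes were called, and gave 2 an unadjusted p under 0.05, Insig1 and Hsd17b7, where 2.62% of its genes had one. The smallest p in edgeR was that of Insig1, which averaged 54.0 ± 28.4 CPM in the lines (SD, n = 3) and had 21.9 CPM in control, with a log2 fold change of 1.30 (SE 0.595, edgeR adjusted p = 1.00). Fdps averaged 136 ± 94.0 CPM in the lines (SD, n = 3) and had 66.4 CPM in control, a log2 fold change of 1.04 (SE 0.868). The median over the 35 genes was 0.54, beside 0.02 over all tested genes. This fit has 2 residual degrees of freedom and measures the spread between different mutant lines, with the lone control assumed to vary like them. Fits that left out 1 line in turn are given with the other settings below.

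M32 and M83 were the extremes, and their ratio does not use the control library. M32 was higher than M83 by the rule for 22 of the 35 genes, where 2.56% of all tested genes were, and lower for 0, where 2.57% were. Among genes with at least 50 counts in the higher library that background was 3.15%. The median log2 ratio of the 35 genes was 1.28, beside -0.0034 over all tested genes. Fdps gave the largest ratio of the list, 6.09 (5.71 to 6.51), with 6053 counts in M32 and 1059 in M83, rank 138 from the top of 13576 genes. Mvd followed at 4.92, Idi1 at 4.70, Hmgcs1 at 4.53, Mylip at 4.30 and Scd2 at 4.28. Ebp (0.794), Insig2 (0.861), Acaca (0.908) and Fasn (0.912) lay below 1. M8 was higher than M83 for 13 of the 35 genes, where 2.4% of all tested genes were, and lower for 0, where 4.08% were. The 13 comprise 5 mevalonate genes, 5 genes of the sterol branch, Srebf2, Stard4 and Mylip. Idi1 led at 5.54, with 2745 counts in M8 and 503 in M83. M32 was higher than M8 for 3 genes, where 2.96% of all tested genes were, and lower for 0, where 1.72% were. The 3 were Scd2 at 2.49 (2.44 to 2.53), Mvd at 2.24 (2.01 to 2.50) and Nsdhl at 2.04.

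**Figure D4:**
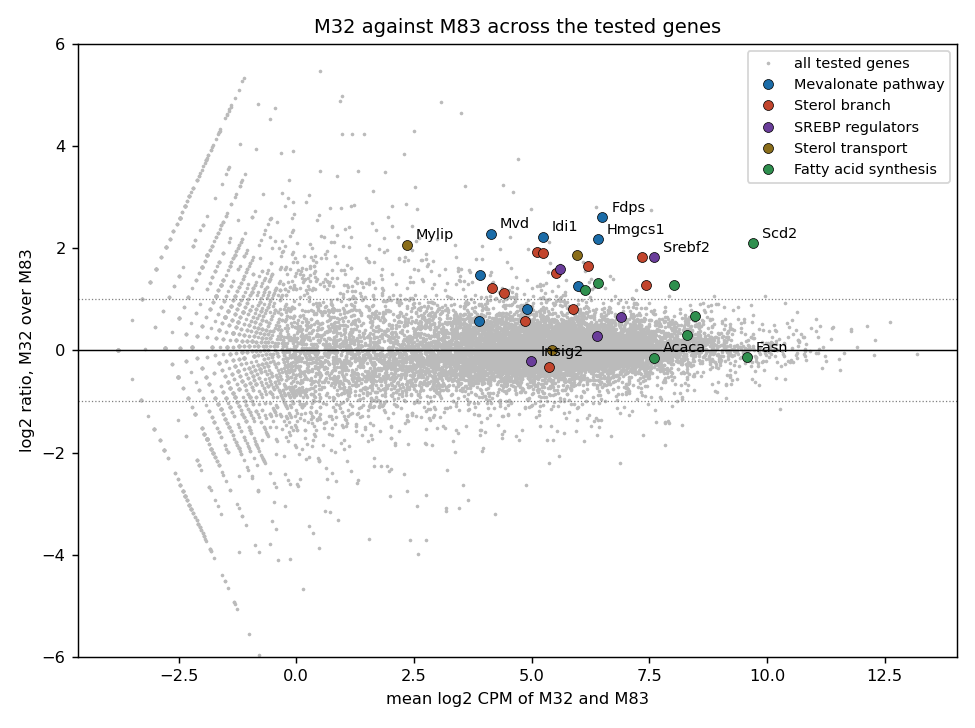
Log2 ratio of M32 over M83 (y axis) against the mean log2 CPM of both libraries (x axis); grey points are the tested genes, coloured points the sterol and fatty acid genes, and dotted lines mark 2-fold (9 genes lie beyond the axis limit of 6). Fdps, Mvd, Idi1, Hmgcs1 and Scd2 lie above a log2 ratio of 2, and Fasn and Acaca lie just below 0.

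The spread of each gene over the 3 lines was also taken without the control. The SD of log2 CPM over M8, M32 and M83 had a median of 0.65 for the 35 genes, beside 0.27 over all tested genes and 0.23 over the 11133 genes with at least 50 counts in the highest line. Of the 35 genes, 12 exceeded an SD of 0.87, where 9.99% of all tested genes and 4.68% of those 11133 genes did. The largest SDs were those of Fdps and Idi1 (1.37 and 1.36), and the smallest were those of Fasn (0.11), Acaca (0.12), Insig2 (0.17) and Acly (0.17). M32 was the highest of the 4 libraries for 27 of the 35 genes, and M83 the lowest for 24. The shares of all tested genes with M32 highest or M83 lowest are not given here, so these counts have no background.

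**Figure D5:**
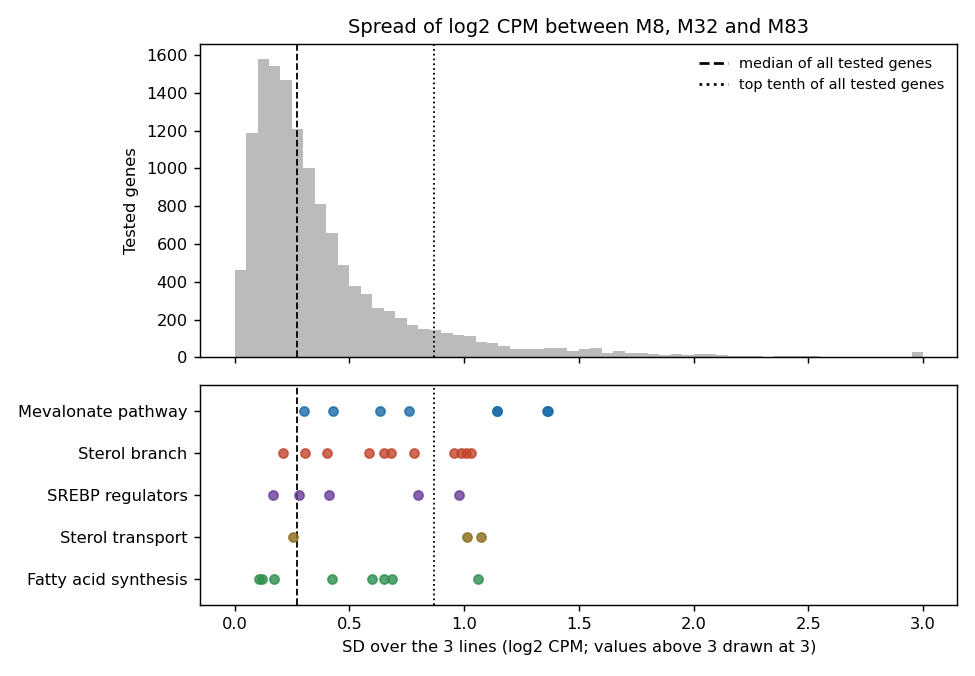
SD of log2 CPM over M8, M32 and M83 (x axis) as a histogram of the tested genes (upper panel, number of genes) and as points for the sterol and fatty acid genes by role (lower panel); the dashed line is the median and the dotted line the SD of 0.87 that 9.99% of them exceed. Of the 8 mevalonate genes 4 lie right of the dotted line, and of the 8 fatty acid genes 1 does.

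The other genes of lipid and isoprenoid metabolism were 90 genes in 4 lists, of which 80 were tested, and 0 passed in edgeR in either direction. By the 2-fold rule 1 of the 80 was higher in M8 (Stard5), where 2.97% of all tested genes were. In M32 4 were higher and 1 was lower, where 3.88% and 0.921% of all tested genes were. In M83 2 were higher and 1 was lower, where 4.17% and 1.02% were, so these shares lay near those of all genes. Lpin1, the lipin phosphatase gene of glycerolipid synthesis and a known SREBP target, had 396, 732 and 380 counts in M8, M32 and M83, against 284 in control, and Acss2, the cytosolic acetyl-CoA synthetase gene, had 129, 273 and 188 counts, against 98 in control. Gramd1b, which encodes a sterol transfer protein of membrane contact sites, had 144, 273 and 150 counts in the lines, against 64 in control. Stard5, a sterol carrier gene, had 453, 361 and 309 counts, against 167 in control. Lipa, the lysosomal acid lipase gene, ran in another order, with 234, 560 and 886 counts in M8, M32 and M83 against 309 in control. Rabggtb, a subunit gene of the enzyme that prenylates Rab proteins, was lower in M32 and M83, with 4525, 2633 and 2501 counts in M8, M32 and M83 against 6364 in control. A list of 13 genes of SREBP proteases, degradation of its partners, LXR receptors and AMPK subunits had 11 tested members, of which 0 met the rule in the 3 lines. Mbtps1, the site-1 protease gene, had 4123, 4668 and 4147 counts in M8, M32 and M83, against 4301 in control.

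Some counts could include reads of other genes. Of the 36 genes, 9 share at least 5% of their 50-base words with another gene. The part of such a share that belongs to each partner was not measured. Acat2 shares 39.1%, with partners that include Acat3 and its neighbour Tcp1. Acat3 had 14, 15 and 6 counts in M8, M32 and M83 and 4 in control. Tcp1 had 30768, 23044 and 24406 counts in the lines and 23842 in control. Fdft1 shares 26.5%, with partners that include Ctsb on the opposite strand, which had 14143, 12337 and 13015 counts in the lines and 9353 in control. Fdps shares 26.2% with an overlapping transcript (Gm43738, at most 48 counts) and pseudogenes, Idi1 25.3% and Acaca 30.4%. No member lies on chromosome 12 or 16, where the medians over tested genes were -0.52 (chromosome 12, M8) and -0.53 (chromosome 16, M83). Of the chromosomes that carry members, the medians lay between -0.20 and 0.20 in each line. The lowest was that of chromosome 13 in M83 (-0.20), which carries Hmgcs1, Idi1, Ggps1 and Mylip. Next was chromosome 15 in M83 (-0.19), which carries Sqle and Srebf2.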

How the data were processed

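Values are counts, deposited by the authors as whole numbers of reads per gene in 1 column per sample, not normalised. Per the submitters' processing notes the build is GRCm38. Aligner, counter, annotation and strand setting are not named in the labels, so a gene and an overlapping gene on the other strand may share reads. Per the labels' protocols RNA was poly(A)-selected. The design text of the series speaks of triplicates, without saying if the columns are sums of such repeats. Each library held between 25818148 and 28879954 counts.

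From these counts, TMM factors, the filter on low counts and the quasi-likelihood F-test came from edgeR 4.0.16 (R 4.3.3), with Benjamini-Hochberg adjustment over 13576 genes, for 3 ENU lines against 1 control. Their p-values hold only the spread from line to line, which is not one of repeat cultures. DESeq2 1.42.0 was an alternative. Single lines were compared without a test by the 2-fold rule in the report, with a prior count of 2 and at least 50 counts. Gene positions, exon lengths and 50-base words came from GENCODE vM21, which holds 41434 of the 41457 row identifiers. Promoter sequences are from RefSeq on GRCm38.p6. The quasi-likelihood F-test was run on simulated data. The outcome is not given here, so the share of true changes that the test would call is not stated. The list of genes, the other lists and the rules were chosen with earlier results of these data known. The 36 genes were all reported. Genes of other lists were named when they met the 2-fold rule in a line, at most 4 a list with the largest log2 ratio first, and Col1a2, Dcn, Lum, Thy1, Epcam, Cdx2 and Mbtps1 were chosen after their values were seen. A count of 0 allows up to 3 counts, or 0.118 CPM in control.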

Additional observations from a re-analysis of the deposited data

Results flagged for a closer look

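In 3 genes of the list 1 line lay at least 2-fold above control by the rule and another at least 1.5-fold below it. The difference between these lines was not tested, since each has 1 library, and the ratios below set the lines against each other without the control. Idi1 was 5.54 times as high in M8 as in M83 and 4.70 times as high in M32 as in M83. Fdps was 4.08 times as high in M8 as in M83 and 6.09 times as high in M32 as in M83. Stard4 was 3.65 times as high in M32 as in M83. The share of all tested genes with such a pair of lines is not given here.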

How the results depend on the processing

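No paired analysis was possible because the control has 1 library and the labels give no replicate numbers. The number of the 35 genes called in the ENU lines against control was 0 with median-of-ratios (RLE) scaling, with library size alone, with no filter on low counts, in DESeq2 and without each line in turn (0 to 0). Unadjusted p-values of edgeR's test did depend on the line left out. Under the limit used in the results lay 0 of the 35 genes without M8, 0 without M32 and 16 without M83. With no filter on low counts it was 2. The shares of all tested genes in these fits are not given here. With a 1.5-fold rule the count of higher genes was 15 in M8 over control, 21 in M8 over M83 and 8 in M32 over M8, and 8 genes were lower in M83 than in control. With a 4-fold rule 0 were higher in M8 and 1 in M32 over control, 0 were lower in M83, and 2 were higher in M8 over M83, 6 in M32 over M83 and 0 in M32 over M8. With a minimum of 500 counts 1 gene was lower in M83. Both scalings and a minimum of 10 counts kept each of these counts within 1.5 times. Shares of all tested genes are given for the 2-fold rule with at least 50 counts only. The counts of higher and lower genes at other settings therefore have no background share. The median log2 ratio of the list kept its sign in each line under both scalings and a prior count of 0.5. Of 105 single log2 ratios, 6 left their counting interval with library size alone and 0 changed sign as a called value. Each line is 1 library, so counting intervals understate the error of a repeat culture, and genes with few counts such as Mylip are the least precise.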
